A study of Mus musculus with 19 samples.

Results

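The microRNA processing and silencing machinery was followed through 10 genes: Dicer1, Drosha, Dgcr8, Xpo5, Ago1, Ago2, Ago3, Tarbp2, Tnrc6a and Prkra. They were chosen by name for their role in the pathway, and each was represented by the brightest probe set (mean over 19 arrays) that the array annotation assigned to that gene alone. By this rule 9 of the 10 had a value, out of 22180 genes in all, and each of the 9 had 1 such probe set. Dgcr8 had none, because its probe set was shared with the microRNA gene Mir1306, and it is therefore described here by sequence only.

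RNA was hybridised to mouse Affymetrix arrays, 1 array per sample, from 7 tumors, 4 aortas, 4 quadriceps femoris muscles of the thigh and 4 sternocleidomastoid muscles of the neck. The tumors were angiosarcomas, malignant growths of the endothelial lineage, from mice of genotype aP2-Cre/+;DicerFlox/-, which carried Cre recombinase under the aP2 (Fabp4) promoter together with 1 floxed and 1 null allele of Dicer. All aortas and muscles were wild type, and all animals were of mixed C57Bl/6 and 129X1/SvJ background. The aP2 promoter is known to be active in adipocytes and in other cells, endothelial cells among them. In each comparison of tumors with normal tissue the genotype changed along with the tissue, and the effects of these cannot be told apart. The labels gave no age, sex, batch or animal of origin, so p-values measure only the spread between these samples, which may be partly technical.

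MicroRNAs are short RNAs that lower the output of the messenger RNAs they pair with. In the nucleus the enzyme Drosha, bound to Dgcr8, cuts a hairpin out of the primary transcript, and exportin 5 (Xpo5) carries it to the cytoplasm. There Dicer1, with its partners Tarbp2 and Prkra, trims the hairpin to a duplex, of which 1 strand is loaded into an Argonaute protein (Ago1 to Ago4). The Argonaute recruits a GW182 protein such as Tnrc6a, which brings in the enzymes that shorten and decap the bound messenger RNA. Dicer1 loss in mice is known to stop most microRNA maturation and, in endothelial cells, to impair vessel growth.

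The hairpin of Mir1306 is shown because it is the reason why Dgcr8 could not be read by itself on these arrays. It lies inside Dgcr8 on the same strand, on chromosome 16 at chr16:18284239-18284317 (minus strand, GRCm38.p6, RefSeq), and capitals mark the mature arms.
Mir1306 hairpin: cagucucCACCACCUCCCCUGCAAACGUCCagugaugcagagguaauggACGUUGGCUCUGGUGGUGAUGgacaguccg

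Promoter windows are shown for the targeted gene Dicer1, for Drosha, which differed between the normal tissues, and for Xpo5, which was higher in the tumors than in every normal tissue. Each window covers 230 bases and ends before the annotated start of the gene, 5′ to 3′ on the gene's own strand (RefSeq, GRCm38.p6). The Dicer1 window is chr12:104751973-104752202 (minus strand), the Drosha window chr15:12824565-12824794 (plus strand) and the Xpo5 window chr17:46202561-46202790 (plus strand). Capitals mark matches to the motifs searched on both strands: the CCAAT box (CCAAT), the ETS core (CCGGAAG) and the GC box (GGGCGG).
Dicer1 promoter: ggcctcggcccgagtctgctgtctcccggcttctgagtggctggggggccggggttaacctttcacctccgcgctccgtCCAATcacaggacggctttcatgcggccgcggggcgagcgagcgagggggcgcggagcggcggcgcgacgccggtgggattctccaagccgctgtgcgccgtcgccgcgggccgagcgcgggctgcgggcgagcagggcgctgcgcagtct
Drosha promoter: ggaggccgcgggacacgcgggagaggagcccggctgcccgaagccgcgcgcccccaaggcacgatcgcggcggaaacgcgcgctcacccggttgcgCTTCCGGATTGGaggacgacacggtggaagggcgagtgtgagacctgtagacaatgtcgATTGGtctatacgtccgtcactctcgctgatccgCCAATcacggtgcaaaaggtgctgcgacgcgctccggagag
Xpo5 promoter: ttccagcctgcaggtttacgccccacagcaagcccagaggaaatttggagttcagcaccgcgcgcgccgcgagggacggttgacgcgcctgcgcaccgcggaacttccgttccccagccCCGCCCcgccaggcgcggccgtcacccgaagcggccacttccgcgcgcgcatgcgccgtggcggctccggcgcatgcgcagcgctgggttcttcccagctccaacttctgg

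All 3 windows were rich in G and C, at 74.8% in Dicer1, 66.5% in Drosha and 70.9% in Xpo5, against a median of 51.7% over 32851 promoter windows of the same length. They held 35, 32 and 32 CpG dinucleotides, against a median of 5. These windows do not stand for every member. The Tnrc6a window, not printed although Tnrc6a was also higher in the tumors, had 38.7% G and C, 7 CpG dinucleotides and no motif match. Like every window not printed, it overlapped the annotated span of its own gene, whereas the 3 printed windows lay outside theirs. It is therefore not a like-for-like match to the printed windows. The other windows not printed, that of Dgcr8 among them, ran from 60.4% in Tarbp2 to 73.9% at 1 start of Ago1. For Ago2 no window was available. The Dicer1 window held 1 CCAAT match, the Drosha window 3 CCAAT matches and 1 ETS match, which adjoins 1 of the CCAAT matches without overlapping it, and the Xpo5 window 1 GC box. CCAAT occurred in 32.2% of all windows, the ETS core in 5.56% and the GC box in 29.8%. The E-box letters (CACGTG, in 5.35% of all windows) and the TATA box letters (TATAAA, in 11.8%) were not in these 3 windows.

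Array medians lay between 5.35 and 5.48 log2 units over all probe sets, and between 5.83 and 5.94 over the 22180 genes tested. Of the 9 genes, 8 were brighter than the gene median, the median over the genes tested, on all 19 arrays, and Prkra was so on 13 of 19. Log2 intensity of a probe set compares samples for 1 gene and does not rank genes against each other. No level is therefore set against that of another named gene, and the gene median serves only as a rough mark of dim signal. Tests were limma contrasts fitted to all 19 arrays and adjusted over 22180 genes at a threshold of 0.05, and muscle means the average of the 2 muscle group means.

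The tumors differed from the normal tissues in the levels of cell type markers as well. The mean log2 level of 14 endothelial markers was 9.53 to 10.33 in tumors, against 8.27 to 8.38 in aortas, 7.63 to 7.82 in quadriceps femoris and 7.62 to 7.94 in sternocleidomastoid. Mitosis genes (11 measured) averaged 7.22 to 8.82 in tumors, against 5.12 to 5.75 in aortas and 5.17 to 5.31 in the muscles. Macrophage genes (10 measured) averaged 8.20 to 9.36 in tumors, against 6.77 to 7.06 in aortas and 6.07 to 7.15 in the muscles. Neutrophil genes (7 measured) averaged 5.66 to 8.83 in tumors, against 4.81 to 4.92 in aortas and 4.64 to 4.84 in the muscles, and smooth muscle genes (8 measured) averaged 8.50 to 9.50 in tumors, against 9.94 to 10.29 in aortas and 8.01 to 8.39 in the muscles. Skeletal muscle genes (12 measured) ran from 5.20 in tumor 5 to 10.26 in tumor 2, against 5.62 to 7.89 in aortas and 12.11 to 12.46 in the muscles. Brown adipocyte genes (7 measured) averaged 4.93 to 8.61 in tumors, against 10.76 to 11.45 in aortas. The same genes averaged 7.49 to 8.79 in quadriceps femoris and 9.14 to 10.21 in sternocleidomastoid, the muscle nearer to the aortas. Heart muscle genes (8 measured) averaged 5.59 to 6.10 in tumors, against 9.80 to 10.50 in aortas. They averaged 6.26 to 6.64 in quadriceps femoris and 6.22 to 6.56 in sternocleidomastoid. In both lists every aorta lay above every other sample. Adipocyte genes (7 measured) averaged 6.36 to 10.97 in tumors, against 10.36 to 10.54 in aortas. They averaged 8.27 to 10.34 in quadriceps femoris and 8.35 to 9.04 in sternocleidomastoid. T and B cell genes (7 measured) averaged 4.69 to 5.99 in tumors, against 5.29 to 7.28 in aortas. They averaged 4.83 to 5.04 in quadriceps femoris and 4.92 to 5.13 in sternocleidomastoid. None of these markers can be called absent, since log2 intensities have no zero. Their part in the differences below was not tested, and in bulk tissue fewer cells of a type and less RNA per cell cannot be told apart.

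Dicer1, the enzyme that cuts the precursor hairpin and the target of the floxed and null alleles, was read at 8.17 (lowest), 8.62 (median) and 8.80 (highest) log2 units in the 7 tumors. Aortas gave 8.26, 8.40, 8.02 and 8.26, quadriceps femoris gave 8.66, 8.62, 8.91 and 8.85, and sternocleidomastoid gave 8.28, 8.44, 8.52 and 8.43. The tumor values overlapped those of each normal tissue, while aorta 3 lay below every tumor and quadriceps femoris 3 and 4 lay above every tumor. The group means were 8.53 ± 0.26 in tumors (SD, n = 7), against 8.23 ± 0.16 in aortas, 8.76 ± 0.14 in quadriceps femoris and 8.42 ± 0.10 in sternocleidomastoid (SD, n = 4 each). The tumor minus aorta difference was 0.29 ± 0.12 (SE, 95% interval 0.04 to 0.55), which did not pass the threshold (adjusted p = 0.0714). Against muscle Dicer1 differed by -0.06 ± 0.10 (interval -0.28 to 0.15, adjusted p = 0.629). Without tumor 2 (0.35, adjusted p = 0.0213) or without tumor 7 (0.35, adjusted p = 0.0242) Dicer1 passed as higher than in aortas. Only the aorta and quadriceps femoris pair differed past the threshold among the 6 pairs of tissue types, with aortas lower by -0.53 (adjusted p = 0.00636). The sources used here do not say which exons the probes cover, and the values therefore check nothing about the floxed segment.

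**Figure D1:**
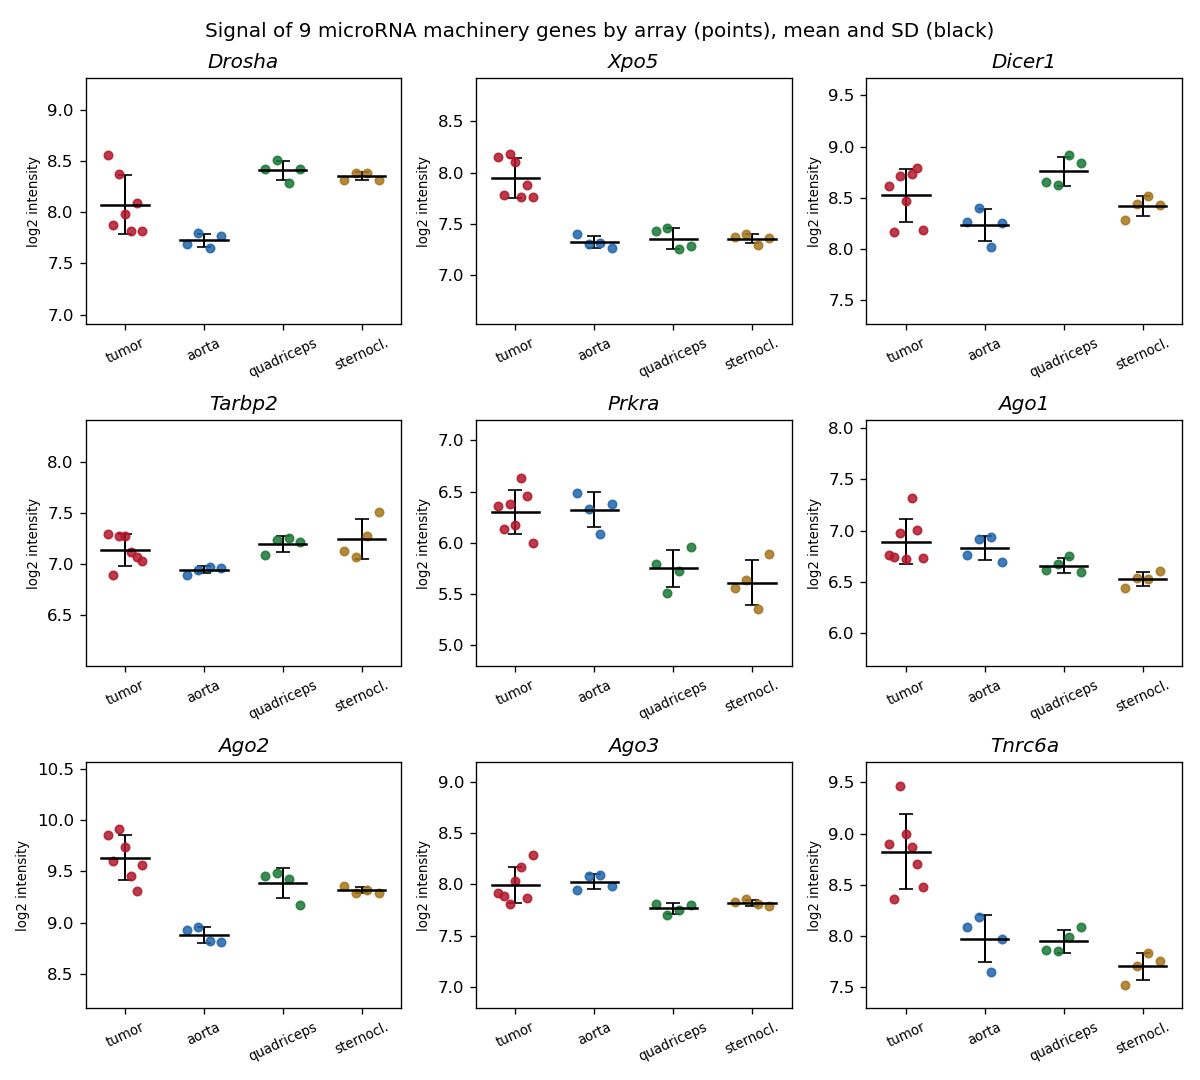
Log2 intensity (vertical axis) of the 9 measured genes of the microRNA machinery, 1 panel per gene, with 1 point per array and the group mean ± SD in black. Groups run from tumor (n = 7) through aorta, quadriceps femoris and sternocleidomastoid (n = 4 each), and the Xpo5 and Tnrc6a panels show every tumor above every normal sample.

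Against aortas, 4 of the 9 machinery genes rose in the tumors and 0 fell, where 18.6% of all genes rose and 17.5% fell (36.2% in either direction). They were Tnrc6a, Ago2, Xpo5 and Drosha, and all 7 tumors lay above all 4 aortas for each of them, a separation that 12.2% of all genes showed in that direction. The median difference over the 9 genes was 0.29, against -0.02 over all genes. At an unadjusted p under 0.05 the count was 5, with Dicer1 as the additional gene, where 43.4% of all genes were under it. Centring the arrays on 13 housekeeping genes lowered the median of all genes to -0.13 and left 3 of the 4 past the threshold. Of those 13 genes, 5 were themselves called higher in the tumors than in aortas and 2 lower. In the same comparison endothelial markers were higher in the tumors for 13 of 14 genes and mitosis genes for 11 of 11. So were macrophage genes for 10 of 10 and neutrophil genes for 7 of 7. Fibroblast genes were higher for 2 of 7 and erythroid genes for 1 of 2. Lower in the tumors were smooth muscle markers for 6 of 8, heart muscle for 8 of 8 and brown adipocyte for 7 of 7. Adipocyte markers were lower for 5 of 7 and T and B cell markers for 6 of 7, and skeletal muscle markers were called for 0 of 12.

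Against muscle, 6 of the 9 genes rose and 1 fell, where 25.3% of all genes rose and 25.7% fell (51% in either direction). Tnrc6a, Prkra, Xpo5, Ago1, Ago2 and Ago3 were higher in the tumors, and Drosha was lower. For 3 of them, Tnrc6a, Prkra and Xpo5, every tumor lay above every muscle sample, as it did for 14.6% of all genes. The median difference was 0.28, against -0.04 over all genes. Under housekeeping centring the median of all genes moved to -0.34, and 3 genes remained higher (Tnrc6a, Prkra and Xpo5). The 3 Argonautes changed sign with that shift but stayed above the median of all genes. The housekeeping genes were not constant themselves, with 7 of 13 called higher in tumors than in muscle and 4 lower (differences from -2.21 to 2.12). The sign changes therefore depend on the list chosen. Skeletal muscle markers were lower in the tumors for 12 of 12 genes, and endothelial markers were higher for 14 of 14 and neutrophil markers for 7 of 7. Macrophage markers were higher for 10 of 10, mitosis genes for 11 of 11, fibroblast genes for 2 of 7 and erythroid genes for 1 of 2. Smooth muscle markers were higher for 5 of 8 and lower for 3. Heart muscle markers were lower for 4 of 8 and brown adipocyte markers for 4 of 7. Adipocyte and T and B cell markers had 0 of 7 called each.

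The genes called higher in both tumor comparisons were Xpo5, Ago2 and Tnrc6a, which is 33.3% of the 9. Over all genes the figure was 15%, or 3322 genes. Both comparisons use the same 7 tumors, so they are not independent of each other.

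**Figure D2:**
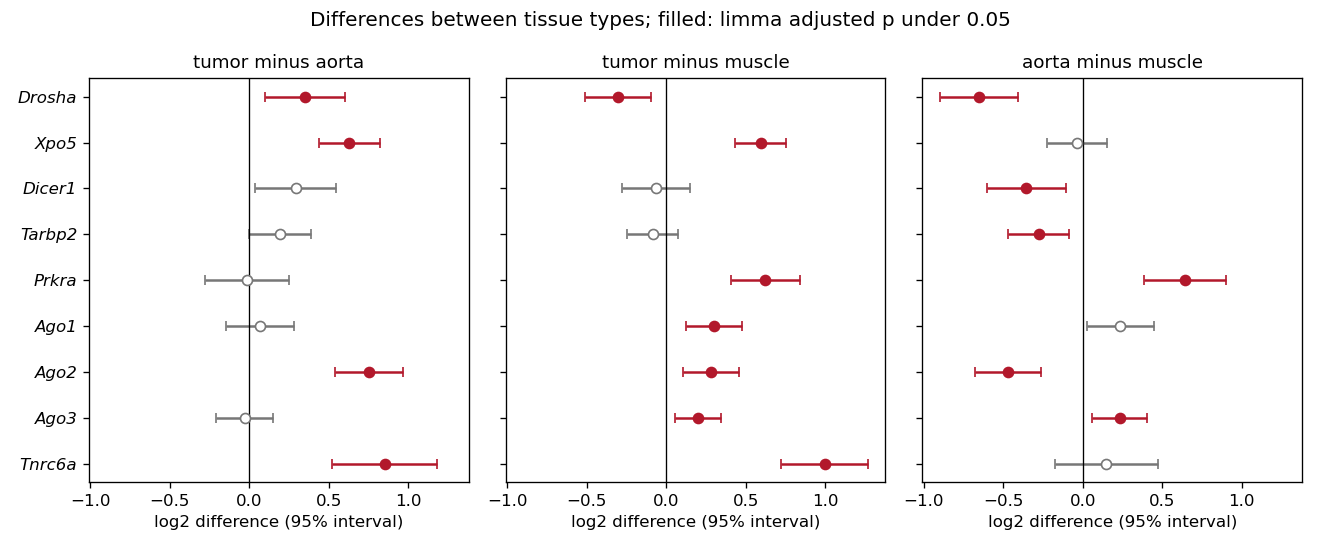
Log2 differences with 95% intervals (horizontal axis) for the 9 measured genes in the tumor minus aorta, tumor minus muscle and aorta minus muscle comparisons. Filled points passed the threshold, the vertical line is no difference, and Tnrc6a and Xpo5 lie to its right in both tumor panels; the Argonautes in the tumor minus muscle panel change sign when arrays are centred on housekeeping genes.

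Drosha, the nuclear enzyme that makes the initial cut, had its 7 tumor values at 7.81 (lowest), 7.98 (median) and 8.56 (highest). Aortas read 7.69, 7.79, 7.65 and 7.76, quadriceps femoris 8.42, 8.50, 8.29 and 8.42, and sternocleidomastoid 8.31, 8.39, 8.38 and 8.32. The tumors thus lay between the normal tissues: all were above the aortas, and 5 of the 7 were below every muscle sample. The mean was 8.07 ± 0.29 in tumors, against 7.72 ± 0.07 in aortas, 8.41 ± 0.09 in quadriceps femoris and 8.35 ± 0.04 in sternocleidomastoid. Drosha was 1.27-fold higher than in aortas (log2 difference 0.35 ± 0.12, adjusted p = 0.0281) and 1.24-fold lower than in muscle (-0.31 ± 0.10, adjusted p = 0.0145).

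The aorta call of Drosha depended on single arrays, since it ended without tumor 3 (0.30, adjusted p = 0.054), without aorta 1 (0.34, adjusted p = 0.0667) and without aorta 3 (0.33, adjusted p = 0.0768), and with housekeeping centring (0.25, adjusted p = 0.137). The muscle call ended with tumors 1 to 4 alone (-0.18, adjusted p = 0.182) and with sternocleidomastoid alone as muscle (-0.28, adjusted p = 0.0689). Between the normal tissues, Drosha was 1.57-fold lower in aortas than in muscle (-0.65 ± 0.12, adjusted p = 0.000201), with no overlap, and this call held in all 25 alternatives run for it. In order of level the groups ran quadriceps femoris, sternocleidomastoid, tumor and aorta, and the neighbours that differed past the threshold were tumor and aorta.

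Xpo5, the export receptor for the hairpin, had tumor values of 7.77 (lowest), 7.88 (median) and 8.19 (highest). The aortas gave 7.40, 7.31, 7.31 and 7.27, the quadriceps femoris 7.42, 7.46, 7.25 and 7.28, and the sternocleidomastoid 7.37, 7.40, 7.29 and 7.36. Every tumor exceeded all 12 normal samples, which all lay between 7.25 and 7.46, the range of quadriceps femoris itself. Xpo5 averaged 7.95 ± 0.19 in tumors, against 7.32 ± 0.06 in aortas, 7.35 ± 0.10 in quadriceps femoris and 7.36 ± 0.05 in sternocleidomastoid. It rose 1.55-fold against aortas (0.63 ± 0.09, adjusted p = 2.21e-05) and 1.51-fold against muscle (0.59 ± 0.08, adjusted p = 1.7e-06). Aortas and muscle did not differ past the threshold (-0.04 ± 0.09, interval -0.22 to 0.15, adjusted p = 0.822). Both tumor calls of Xpo5 held in every alternative run, 25 against aortas and 30 against muscle.

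Tarbp2, a double-stranded RNA-binding partner of Dicer1, was read at 6.90 (lowest), 7.12 (median) and 7.30 (highest) in the tumors. Aortas lay at 6.90, 6.95, 6.97 and 6.96, quadriceps femoris at 7.09, 7.23, 7.26 and 7.22, and sternocleidomastoid at 7.13, 7.07, 7.28 and 7.51. The tumors overlapped the aortas and both muscles. The differences were 0.19 ± 0.09 against aortas (adjusted p = 0.116) and -0.08 ± 0.08 against muscle (adjusted p = 0.385), neither past the threshold, although Tarbp2 passed as higher than in aortas without tumor 2 (0.23, adjusted p = 0.0468). Aortas were below all muscle samples (-0.28 ± 0.09, adjusted p = 0.0231), a call that ended without aorta 1 (-0.26, adjusted p = 0.0673) or without aorta 2 (-0.28, adjusted p = 0.051).

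Prkra, the other double-stranded RNA-binding partner of Dicer1 and an activator of the kinase PKR, had tumor values of 6.00 (lowest), 6.36 (median) and 6.63 (highest), and the aortas read 6.49, 6.33, 6.09 and 6.38. The quadriceps femoris samples read 5.79, 5.51, 5.73 and 5.96 and the sternocleidomastoid samples 5.56, 5.64, 5.36 and 5.89. Tumors and aortas overlapped, and both lay above every muscle sample. Prkra averaged 6.30 ± 0.22 in tumors, against 6.32 ± 0.17 in aortas, 5.75 ± 0.18 in quadriceps femoris and 5.61 ± 0.22 in sternocleidomastoid. It was 1.54-fold higher in tumors than in muscle (0.62 ± 0.10, adjusted p = 4.03e-05) and 1.56-fold higher in aortas than in muscle (0.64 ± 0.12, adjusted p = 0.000392). Between tumors and aortas the difference was -0.02 ± 0.13 (interval -0.28 to 0.25, adjusted p = 0.937). In the muscles its signal was close to the gene median.

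Ago2, the Argonaute that can cut a perfectly paired target, had tumor values of 9.31 (lowest), 9.60 (median) and 9.92 (highest). Aortas gave 8.93, 8.96, 8.82 and 8.81, quadriceps femoris 9.46, 9.49, 9.43 and 9.17, and sternocleidomastoid 9.36, 9.29, 9.32 and 9.29. All tumors were above the aortas, while the lowest tumors overlapped both muscles. The means were 9.63 ± 0.22 in tumors, against 8.88 ± 0.08 in aortas, 9.39 ± 0.14 in quadriceps femoris and 9.32 ± 0.03 in sternocleidomastoid. Ago2 rose 1.69-fold against aortas (0.75 ± 0.10, adjusted p = 9e-06), and this call held in all 25 alternatives. Against muscle it rose 1.22-fold (0.28 ± 0.08, adjusted p = 0.00842) but moved to -0.02 with housekeeping centring, and the call also ended with tumors 5 to 7 alone (0.09, adjusted p = 0.431). Aortas were 1.39-fold lower than muscle (-0.47 ± 0.10, adjusted p = 0.00101) and did not overlap it. From high to low the groups ran tumor, quadriceps femoris, sternocleidomastoid and aorta, and of these neighbours only sternocleidomastoid and aorta differed past the threshold.

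Ago1 and Ago3 bind microRNAs without the slicing activity that Ago2 has in mammals, and with Ago4 they lie next to each other on mouse chromosome 4. Ago1 had tumor values of 6.73 (lowest), 6.76 (median) and 7.32 (highest, in tumor 5). Aortas read 6.77, 6.92, 6.94 and 6.69, quadriceps femoris 6.62, 6.67, 6.75 and 6.59, and sternocleidomastoid 6.44, 6.54, 6.53 and 6.61. Tumors and aortas overlapped in part, with 3 tumors above every aorta and aorta 4 below every tumor, and 1 muscle sample, quadriceps femoris 3, reached the range of the tumors. The difference was 0.06 ± 0.10 against aortas (interval -0.15 to 0.28, adjusted p = 0.681). Against muscle Ago1 rose 1.23-fold (0.30 ± 0.08, adjusted p = 0.00552), a difference that went to -0.0060 with housekeeping centring and lost its call with quantile normalization (0.17, adjusted p = 0.104).

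Ago3 was read at 7.81 (lowest), 7.92 (median) and 8.28 (highest) in the tumors. Aortas gave 7.95, 8.08, 8.09 and 7.98, quadriceps femoris 7.81, 7.70, 7.75 and 7.80, and sternocleidomastoid 7.83, 7.86, 7.80 and 7.79. The aortas lay above every muscle sample and inside the range of the tumors. Ago3 differed by -0.03 ± 0.08 between tumors and aortas (adjusted p = 0.822). It was 1.15-fold higher in tumors than in muscle (0.20 ± 0.07, adjusted p = 0.021), which turned to -0.10 with housekeeping centring and lost its call without tumor 5 (0.17, adjusted p = 0.051) or tumor 7 (0.15, adjusted p = 0.0512). It was also higher in aortas than in muscle (0.23 ± 0.08, adjusted p = 0.0364), a call that ended when any of aorta 2, 3 or 4, quadriceps femoris 2 or 3, or sternocleidomastoid 3 or 4 was left out (adjusted p 0.0543 to 0.1).

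Tnrc6a, the GW182 protein that links Argonaute to the deadenylating enzymes, had the largest tumor differences of the 9 genes. Its tumor values were 8.36 (lowest), 8.87 (median) and 9.46 (highest, in tumor 3). Aortas read 8.08, 8.19, 7.65 and 7.97, quadriceps femoris 7.87, 7.85, 7.99 and 8.09, and sternocleidomastoid 7.53, 7.71, 7.83 and 7.76. Every tumor exceeded all 12 normal samples, and the normal tissues overlapped except that each sternocleidomastoid sample was below each quadriceps femoris sample. Tnrc6a averaged 8.82 ± 0.36 in tumors, against 7.97 ± 0.23 in aortas, 7.95 ± 0.11 in quadriceps femoris and 7.71 ± 0.13 in sternocleidomastoid. The increase was 1.80-fold against aortas (0.85 ± 0.16, interval 0.52 to 1.18, adjusted p = 0.000259) and 2.0-fold against muscle (1.0 ± 0.13, interval 0.72 to 1.27, adjusted p = 2.12e-06). Aortas and muscle differed by 0.15 ± 0.15 (adjusted p = 0.529). Both tumor calls of Tnrc6a held in every alternative run, 25 against aortas and 30 against muscle.

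Among the normal tissues, aorta minus muscle, 2 of the 9 genes were higher (Prkra and Ago3) and 4 lower (Drosha, Ago2, Dicer1 and Tarbp2), where 17% of all genes were higher and 15.3% lower (32.3% in either direction). Groups did not overlap for the 2 higher genes, against 14.6% of all genes, nor for 3 of the lower ones, against 12.6%. Dicer1 was the lower gene with overlap (-0.36 ± 0.12, adjusted p = 0.0274), and its call ended without aorta 1 (-0.36, adjusted p = 0.054), aorta 3 (-0.28, adjusted p = 0.113), aorta 4 (-0.36, adjusted p = 0.0534) or quadriceps femoris 3 (-0.33, adjusted p = 0.0515). Ago1 (0.24 ± 0.10, adjusted p = 0.0801), Tnrc6a and Xpo5 did not pass. The median difference over the 9 genes was -0.04, against 0.01 over all genes. The aortas were also the tissue with the highest brown adipocyte and heart muscle marker levels given above.

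Between sternocleidomastoid and quadriceps femoris 0 of 9 genes passed the limma test in either direction, where 0.234% of all genes were higher and 0.198% lower (0.433% in either direction). At an unadjusted p under 0.05, which 7.06% of all genes had, there was 1 gene, Dicer1, lower in sternocleidomastoid (-0.34 ± 0.14, interval -0.63 to -0.05, unadjusted p = 0.0233, adjusted p = 0.56). For Dicer1 and Tnrc6a all sternocleidomastoid samples were below all quadriceps femoris samples, as for 3.6% of all genes. The Tnrc6a difference was -0.24 ± 0.18 (adjusted p = 0.892). Each muscle was also taken by itself. Against quadriceps femoris, 4 genes rose in the tumors (Prkra, Xpo5, Ago3 and Tnrc6a) and 1 fell (Drosha), where 22.8% of all genes rose and 22% fell (44.7% in either direction). Against sternocleidomastoid, 5 rose (Prkra, Xpo5, Ago1, Ago2 and Tnrc6a) and 0 fell, where 23.2% rose and 22.6% fell (45.9%). Aortas had 2 genes higher than quadriceps femoris (Prkra and Ago3) and 3 lower (Dicer1, Drosha and Ago2), where 15% of all genes were higher and 14% lower (29.1%). They had 1 gene higher than sternocleidomastoid (Prkra) and 3 lower (Tarbp2, Drosha and Ago2), where 14.2% were higher and 12.8% lower (27%). Over all 6 pairs of the 4 tissue types, 23 of 54 gene and pair combinations passed the threshold, where 30.6% of combinations did over all genes.

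The tumors varied more than the normal tissues over all genes, with a median gene-wise SD of 0.212 log2 units in tumors, against 0.155 in aortas, 0.143 in quadriceps femoris and 0.157 in sternocleidomastoid. Tnrc6a was the most variable of the 9 genes among tumors, with a range of 1.10 log2 units and an SD at percentile 79 of all genes. Drosha (range 0.75, percentile 69) and Dicer1 (range 0.63, percentile 63) followed, while Ago3 (percentile 36) and Tarbp2 (percentile 28) varied less than most genes.

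Tumors 1 to 4 and tumors 5 to 7 carry title codes that fall before and after those of the normal tissues, and the labels do not say what the codes stand for. Ago2 was read at 9.60 to 9.92 in tumors 1 to 4 and 9.31 to 9.56 in tumors 5 to 7. How many of all genes split the tumors in this way was not counted, so whether the split is particular to Ago2 is not known. With tumors 1 to 4 alone the tumor minus aorta differences were 0.90 for Ago2, 0.74 for Xpo5, 0.96 for Tnrc6a and 0.48 for Drosha. With tumors 5 to 7 alone they were 0.56 for Ago2, 0.48 for Xpo5, 0.71 for Tnrc6a and 0.18 for Drosha. Of these only the value of Drosha in tumors 5 to 7 did not pass (adjusted p = 0.165). Whether the tumor subsets differ from each other was not tested. The skeletal muscle marker mean was 9.01, 10.26, 6.87 and 8.67 in tumors 1 to 4 and 5.20, 5.58 and 9.45 in tumors 5 to 7, and the mitosis mean was 8.33 to 8.82 in tumors 1 to 4 and 7.22 to 7.71 in tumors 5 to 7.

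**Figure D3:**
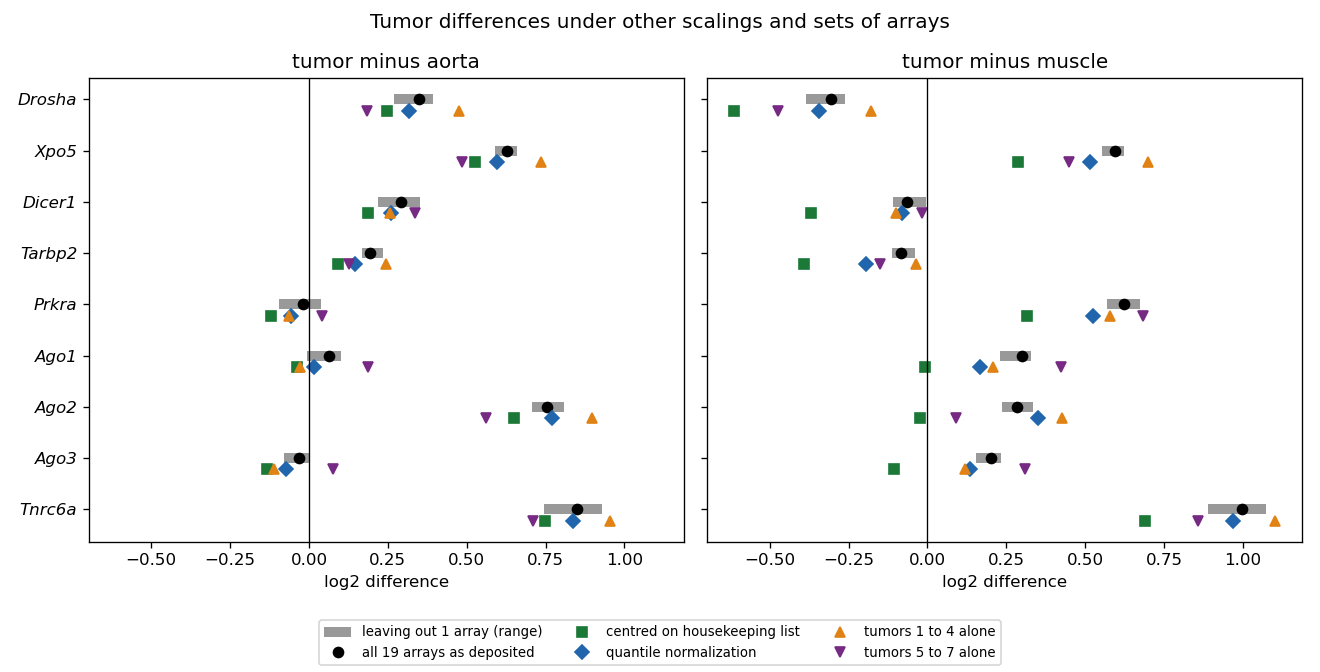
Log2 differences (horizontal axis) for the 9 measured genes in the tumor minus aorta and tumor minus muscle comparisons, with all arrays (black), with each array left out in turn (grey range) and under other scalings and tumor subsets (coloured marks). Xpo5 and Tnrc6a stay to the right of 0 in both panels, while Ago1, Ago2 and Ago3 in the tumor minus muscle panel fall to between -0.10 and -0.0060 under housekeeping centring.

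Other genes of the pathway were read from a list of 55, of which 50 had a value, and are given by role. Against aortas 25 of 50 rose and 1 fell, where 18.6% of all genes rose and 17.5% fell. Against muscle 27 rose and 9 fell, where 25.3% of all genes rose and 25.7% fell. The median difference was 0.31 in both comparisons, against -0.02 and -0.04 over all genes. Called higher in both tumor comparisons were 20 of the 50 (40%), where 15% of all genes were, and called lower in both were 0, where 11% of all genes were. Between the muscles 0 of 50 passed by limma in either direction, where 0.433% of all genes did. An unadjusted p under 0.05 was reached by 0 of the 50, where 7.06% of all genes reached it. For 4 of the 50 all sternocleidomastoid samples were below all quadriceps femoris samples, where 3.6% of all genes were. The reverse held for 0 of the 50, where it held for 4% of all genes.

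Among nuclear cofactors, 4 of 6 rose against aortas and 5 of 6 against muscle, and 0 fell. Over all genes 18.6% rose and 17.5% fell against aortas, and 25.3% rose and 25.7% fell against muscle. Srrt, which ties the cap of a new transcript to microRNA processing, rose by 0.62 ± 0.11 against aortas (adjusted p = 0.000211) and by 1.23 ± 0.09 against muscle (adjusted p = 1.22e-09). Ran, the small GTPase whose GTP-bound form loads exportin 5, rose by 0.62 ± 0.15 against aortas (adjusted p = 0.00268), though with tumors 5 to 7 alone the difference was 0.25 (adjusted p = 0.119). Khsrp, an RNA-binding protein that helps the processing of a group of precursors, rose by 1.0 ± 0.08 against muscle (adjusted p = 1.87e-09).

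Of 9 silencing cofactors, 3 rose against aortas and 0 fell, where 18.6% of all genes rose and 17.5% fell. Against muscle 4 rose and 3 fell, where 25.3% of all genes rose and 25.7% fell. Mov10, an RNA helicase bound to Argonaute, was 2.0-fold higher than in aortas (1.0 ± 0.15, adjusted p = 2.78e-05) and 2.60-fold higher than in muscle (1.38 ± 0.12, adjusted p = 1.38e-08). Snd1, a nuclease found in silencing complexes, rose by 0.94 ± 0.14 against aortas (adjusted p = 2.54e-05). Fxr1, an RNA-binding protein of the fragile X family that is abundant in muscle, averaged 9.15 ± 0.33 in tumors, against 9.27 ± 0.30 in aortas, 11.15 ± 0.11 in quadriceps femoris and 11.12 ± 0.09 in sternocleidomastoid. It was 3.95-fold lower in tumors than in muscle (-1.98 ± 0.13, adjusted p = 1.14e-10).

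Ago4, the remaining Argonaute, was above the gene median on 9 of 19 arrays. It was read at 5.32 (lowest), 5.57 (median) and 5.95 (highest) in tumors, against 5.51, 5.40, 5.66 and 5.96 in aortas, 6.25, 5.84, 5.99 and 6.07 in quadriceps femoris and 5.93, 6.39, 5.77 and 6.10 in sternocleidomastoid. Tumors and aortas overlapped (0.01 ± 0.14, adjusted p = 0.964). Against muscle Ago4 fell by 0.40 ± 0.11 (adjusted p = 0.00573), a direction opposite to those of Ago1, Ago2 and Ago3 in the same comparison; with housekeeping centring, which lowers all genes alike, all 4 were below 0, with Ago1, Ago2 and Ago3 above the median of all genes (-0.34) and Ago4 below it (-0.70). That Ago4 call ended with tumors 5 to 7 alone (adjusted p = 0.0718).

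Turnover of precursors and microRNAs was represented by 15 genes. Of these, 8 rose and 1 fell against aortas, where 18.6% of all genes rose and 17.5% fell. Against muscle 9 rose and 3 fell, where 25.3% of all genes rose and 25.7% fell. Eri1, an exonuclease, was 2.20-fold higher than in aortas (1.14 ± 0.16, adjusted p = 1.69e-05), and Xrn2, a nuclear exonuclease, was 2.50-fold higher than in muscle (1.32 ± 0.12, adjusted p = 1.37e-08). Adar, an enzyme that edits adenosine in paired RNA, rose by 1.04 ± 0.08 against muscle (adjusted p = 1.2e-09), while its relative Adarb1 fell by 0.69 ± 0.20 against aortas (adjusted p = 0.0107). The Adarb1 call ended in 3 of 25 alternatives, and its adjusted p rose to 0.101 at most. A fit of the tumors and aortas only was among the 3 (adjusted p = 0.0529).

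Lin28a and Lin28b block maturation of the let-7 family of microRNAs, and Lin28b was dim on these arrays. Lin28b was below the gene median on all 19 arrays, at 4.12 to 4.37 in tumors, against 4.17 to 4.35 in aortas, 4.34 to 4.53 in quadriceps femoris and 4.39 to 4.68 in sternocleidomastoid. Its differences were -0.06 ± 0.07 against aortas (adjusted p = 0.551) and -0.23 ± 0.06 against muscle (adjusted p = 0.00321). Lin28a exceeded the gene median on 5 of 19 arrays, and differed by 0.13 ± 0.11 against aortas (adjusted p = 0.415) and -0.34 ± 0.09 against muscle (adjusted p = 0.00453). In Lin28a the muscle call ended with tumors 5 to 7 alone (adjusted p = 0.141).

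Deadenylating enzymes remove the poly(A) tail of a silenced messenger RNA. The list for this step held 12 measured genes, not all of them enzymes, with the poly(A)-binding protein Pabpc1 among them. Of these, 5 rose against aortas and 0 fell, where 18.6% of all genes rose and 17.5% fell. Against muscle 6 rose and 2 fell, where 25.3% of all genes rose and 25.7% fell. Cnot6, a catalytic subunit of the CCR4-NOT complex, had the largest difference of the 50 genes in the aorta comparison, averaging 9.60 ± 0.36 in tumors, against 7.93 ± 0.17 in aortas, 7.78 ± 0.05 in quadriceps femoris and 7.80 ± 0.12 in sternocleidomastoid. Its tumor values ran from 9.16 to 10.19 and overlapped no normal sample. Cnot6 was 3.17-fold higher than in aortas (1.66 ± 0.15, adjusted p = 6.77e-08) and 3.51-fold higher than in muscle (1.81 ± 0.12, adjusted p = 2.95e-10). Pabpc1, the poly(A)-binding protein that Tnrc6 proteins contact, rose by 0.60 ± 0.09 against aortas (adjusted p = 3.9e-05), and Pan3, a subunit of the PAN2-PAN3 deadenylase, rose by 1.23 ± 0.10 against muscle (adjusted p = 3.03e-09).

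Decapping factors act after the tail is shortened. Against aortas 5 of 8 rose and 0 fell, where 18.6% of all genes rose and 17.5% fell. Against muscle 3 rose and 1 fell, where 25.3% of all genes rose and 25.7% fell. Dcp2, the decapping enzyme, rose by 0.69 ± 0.10 against aortas (adjusted p = 1.62e-05) and by 0.78 ± 0.08 against muscle (adjusted p = 9.75e-08). Lsm14a, a decapping scaffold of P-bodies, rose by 0.50 ± 0.10 against aortas (adjusted p = 0.000601). Dcp1b, an activator of Dcp2 that exceeded the gene median on 13 of 19 arrays, fell by 0.53 ± 0.12 against muscle (adjusted p = 0.000917). That call ended in 1 of 30 alternatives (adjusted p = 0.0825).

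**Figure D4:**
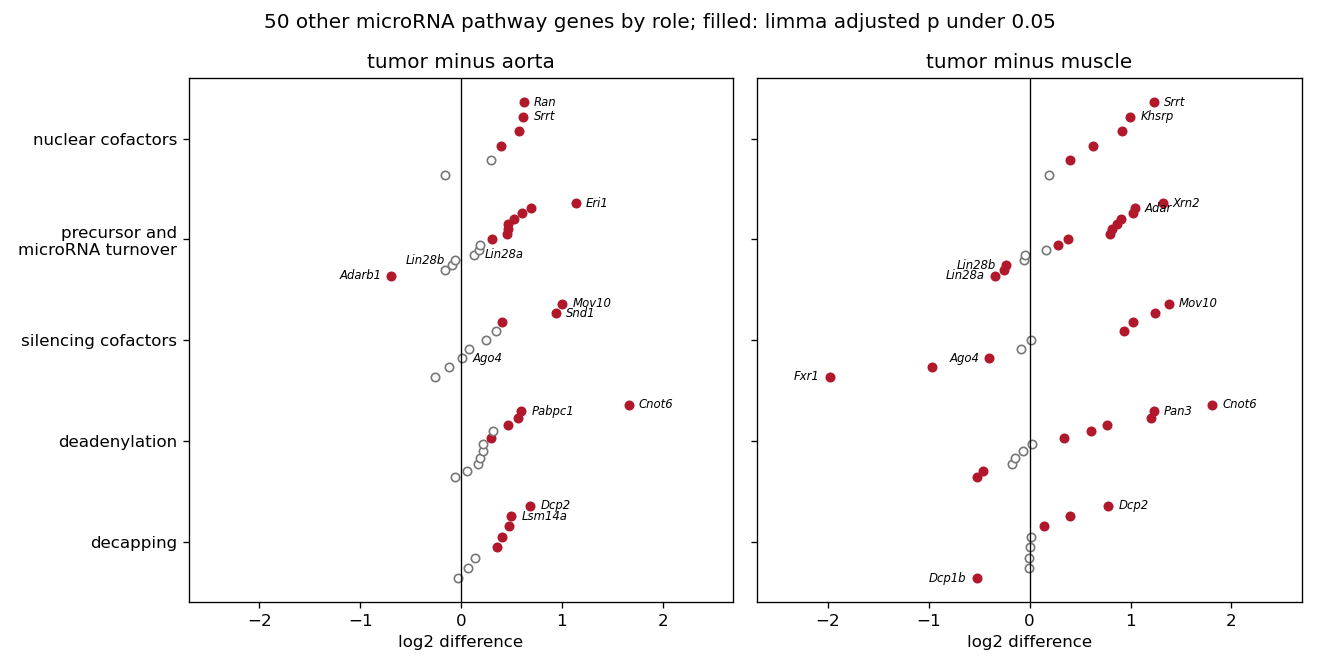
Log2 differences (horizontal axis) of the 50 measured pathway genes, grouped by role down the page, in the tumor minus aorta and tumor minus muscle comparisons. Filled points passed the threshold and named genes are labelled; Cnot6 stands farthest to the right in both panels and Fxr1 farthest to the left against muscle.

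The genes whose profile over the 19 arrays was most like those of the 3 genes with the widest range of group means were found by the root mean square distance between mean-centred log2 values. For Tnrc6a (group means spanning 1.12) they were Rgl1 at 0.155, Git2 at 0.161 and Tug1 at 0.165, where the median distance over all genes was 0.596. For Ago2 (spanning 0.75) they were Cdc16 at 0.118, Clint1 at 0.119 and Pitpna at 0.123, against a median of 0.416. For Prkra (spanning 0.71) they were Scai at 0.159, Numa1 at 0.165 and Slc50a1 at 0.168, against a median of 0.456. The nearest genes lie below the median distance by construction, so the medians give only a scale. Riken, Gm-numbered and predicted gene names were left out of the choice. All 19 arrays and 4 tissue types are shared by these profiles.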

How the data were processed

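The values deposited by the authors were taken as log2 intensity because of their range. Per the labels, RNA extracted with the miRNeasy kit was labelled as biotin cRNA for Affymetrix arrays. Partek 6.6 is named in the submitters' processing notes, and the normalization made by the authors is not given in the sources used here. Of 41345 probe sets, 23521 carried 1 symbol in the platform annotation, 1814 several and 16010 none; updating symbols by gene ID changed 0, and the brightest single-symbol probe set of each gene left 22180 genes. A mean per group was fitted to 19 arrays with limma 3.58.1 in R 4.3.3 (lmFit and eBayes, two-sided, Benjamini-Hochberg over all genes, threshold 0.05), and the script was tested on simulated data. Tables, sequences and figures used Python 3.11.15, pandas 2.3.3 and matplotlib 3.10.9. The members, lists and tests were chosen with earlier results of these data known. Pathway genes were named by rule: in each role the 2 with the largest called difference in each tumor comparison, with Lin28a, Lin28b and Ago4 always. No pair of arrays was identical (0 pairs). The number of arrays limits the precision. The 17 alternatives listed changed scaling, filter, probe set, variance model, threshold, muscle group or samples.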

Additional observations from a re-analysis of the deposited data

Results flagged for a closer look

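In 112 groups of 4 or 7 arrays, over the measured machinery genes and the named pathway genes, 4 groups held a sample far from the others, where chance marks about 1 in 20. All 4 were sternocleidomastoid groups of pathway genes, and none was a group of the 9 machinery genes. Lin28a read 5.72 in sternocleidomastoid 2, with the other 3 samples at 5.87 to 5.90. Pan3 read 8.49 in the same sample, with the others at 8.16 to 8.20. Ran read 6.91 in sternocleidomastoid 3, with the others at 6.64 to 6.66. Xrn2 read 6.62 in sternocleidomastoid 1, with the others at 6.80 to 6.83.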

How the results depend on the processing

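Over the 9 machinery genes and 4 comparisons, 791 values from the alternatives kept their direction and side of the threshold, 57 lost and 10 gained a call, and 24 changed sign. The tumor calls of Xpo5 and Tnrc6a against both tissues, Ago2 against aortas and Prkra against muscle held in all alternatives run for them. No paired analysis was possible because the replicate numbers follow accession order and pair no samples.

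Centring arrays on the housekeeping list shifted all genes alike. The 13 genes of that list were not constant as deposited, so the centring is no fixed reference. Of them, 5 were called higher and 2 lower for tumor minus aorta, and 7 higher and 4 lower for tumor minus muscle. For aorta minus muscle 6 were higher and 3 lower. Centring lowered the median of all genes to -0.126 for tumor minus aorta, -0.344 for tumor minus muscle and -0.191 for aorta minus muscle. Called genes then numbered 3103 higher and 5020 lower against aortas (4131 and 3892 as deposited), 3575 and 13444 against muscle (5617 and 5691), and 2230 and 6882 for aorta minus muscle (3772 and 3396). The machinery genes stayed at the same distance from that median. Their counts were 3 higher and 3 lower for tumor minus muscle (6 and 1 as deposited) and 1 higher for aorta minus muscle (2 as deposited), and the pathway list had 21 lower for tumor minus muscle (9 as deposited) and 9 higher and 20 lower for aorta minus muscle (17 and 12). Dicer1 (-0.37, adjusted p = 0.0102) and Tarbp2 (-0.39, adjusted p = 0.000961) passed as lower than in muscle. Values that changed sign were Ago1 at -0.0392 and Ago4 at -0.0921 for tumor minus aorta, Ago1 at -0.006, Ago2 at -0.0236 and Ago3 at -0.1048 for tumor minus muscle, Tnrc6a at -0.0566 for aorta minus muscle, and Tarbp2 at -4e-04 and Xpo5 at -0.0483 between the muscles.

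Quantile normalization gave 2 machinery genes lower than in muscle, 1 higher for aorta minus muscle, Ago4 at -0.0088 against aortas and Xpo5 at -0.0155 between the muscles. Against muscle it called 5116 genes higher and 6499 lower. Centring on the median gene called 5160 higher and 6968 lower there, and left 1 machinery gene higher for aorta minus muscle.

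At an adjusted p of 0.01 the pathway list had 0 lower against aortas, and the machinery 0 lower against muscle, and 1 higher and 2 lower for aorta minus muscle. Over all 22180 genes that threshold called 3067 higher and 2894 lower against aortas and 4789 and 4421 against muscle. For aorta minus muscle it called 2720 higher and 2566 lower. The shares of all genes for the next setting are not given here. A minimum difference of 0.5, which removes small calls by construction, left 13 pathway genes higher against aortas, 3 machinery genes higher and 0 lower against muscle, 4 pathway genes lower against muscle, 1 machinery gene higher and 1 lower and 11 pathway genes higher and 6 lower for aorta minus muscle, and 15 of the 23 pairwise calls.

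With only the groups compared, the pathway list had 0 lower against aortas, where 3396 of 22180 genes were lower. Without aortas 1 and 3 the pathway list also had 0 lower, where 3085 of all genes were lower, and Ago4 was at -0.0362. For aorta minus muscle the machinery then had 1 higher and 2 lower, where 2824 of all genes were higher and 2587 lower. With tumors 1 to 4 alone the machinery had 0 lower against muscle, where 5398 of all genes were lower. Ago1 was then at -0.0289 and Ago4 at -0.0417 against aortas. With tumors 5 to 7 alone Prkra was at 0.0409 and Ago3 at 0.077 against aortas. Without tumors 2 and 5 the machinery had 0 lower against muscle, where 5413 of all genes were lower, and Ago4 was at -0.0022 against aortas. With sternocleidomastoid alone as muscle the machinery had 0 lower for the tumors, where 5021 of all genes were lower. It had 1 higher for aortas, where 3150 of all genes were higher, and Dicer1 was at 0.1061 for tumor minus muscle. With quadriceps femoris alone the tumor minus muscle calls of Ago1 (adjusted p = 0.0694) and Ago2 (adjusted p = 0.0551) ended.

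Leaving out 1 array at a time, tumor minus aorta ranged from -0.0061 to 0.1017 for Ago1, from -0.0655 to 0.1193 for Ago4 and from -0.0967 to 0.0376 for Prkra. Between the muscles it ranged from -0.0392 to 0.1072 for Tarbp2 and from -0.0336 to 0.0366 for Xpo5. The aorta minus muscle counts ranged from 1 to 2 higher and from 2 to 4 lower, with 2 lower without aorta 1, where 2961 of all genes were lower. The cause of these changes was not tested except where stated. Low signal limits Lin28b, which was below the median of the genes tested on all 19 arrays.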
